A study of Mus musculus with 12 samples.

Results

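The 9 genes described here are transcription factors of the macrophage lineage, Spi1, Cebpa, Cebpb, Cebpd, Maf, Klf4, Id3, Bhlhe40 and Runx1. They were chosen by symbol, through the Ensembl identifiers that GENCODE annotation of the mouse genome GRCm38 gives to these names. Each symbol matched 1 of the 55487 genes in each of the 2 count tables, and all 9 genes passed the filter on low counts in both. The first table held bone marrow macrophages (BMMs), grown from the leg marrow of C57BL/6 mice with macrophage colony-stimulating factor after ovariectomy (OVX) or a sham operation, with 3 libraries each. Ovariectomy removes the ovaries and is a mouse model of the bone loss that follows menopause. The second table held mesenchymal stem cells (MSCs) from C57BL/6 mice, grown alone (MSC), across a transwell membrane from RAW cells, a mouse macrophage line (MSC+RAW-TW), or across it from RAW cells given lipopolysaccharide (MSC+RAW-LPS-TW), with 2 libraries each. All groups carry an age label of 8 weeks, while the study's methods place the surgery itself at that age, so the age of OVX and sham mice at collection is unclear. The time between surgery and collection is not given in the sources used here, and the labels do not say whether libraries came from separate animals or cultures, so p-values measure the spread between these libraries.

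A macrophage is specified by a small set of factors that act on shared enhancers. PU.1, the product of Spi1, is an ETS factor that opens these enhancers, and the C/EBP proteins, basic leucine zipper factors, bind beside it. C/EBPα acts early in the myeloid lineage and is required for granulocyte progenitors, while C/EBPβ and C/EBPδ are induced by inflammatory signals and drive acute-phase genes. RUNX1 acts upstream of Spi1 in blood formation. MAF promotes the terminal, complement-producing macrophage state, KLF4 promotes monocyte differentiation, ID3 lacks a DNA-binding domain and holds E proteins off DNA, and BHLHE40 is a repressor of the basic helix-loop-helix class.

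Libraries held 17012923 to 45367105 counts, and the member with the fewest counts in any library was Klf4, with 260 in 1 of the MSC+RAW-TW libraries. Sham libraries 2 and 3 agreed nearly within sampling noise, as did the 2 MSC+RAW-TW libraries, and each of these pairs was counted as 1 sample. At high counts their chi-square was 3.09 and 3.34 times that of sampling noise, against 30.5 to 269 times for other pairs within a group. The fit for BMMs therefore compared 3 OVX samples with 2 sham samples. The fit for MSCs used 2 MSC samples, 1 MSC+RAW-TW sample and 2 MSC+RAW-LPS-TW samples, with the lone sample assumed to vary like the others. The same was assumed wherever leaving out a library left a group with 1 sample. Columns of the MSC table number both MSC+RAW-TW libraries 1, written here as 1a and 1b. Those of MSC+RAW-LPS-TW carry the numbers 2 and 3. Levels below are normalised read counts (CPM, scaled to library size by TMM within each table), given as mean ± SD over samples, or per length (TPM) where genes of different length are set side by side.

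The labelled cell types were checked against marker genes. All 15 macrophage markers exceeded 1 TPM in every BMM library, with a sum of 89514 to 96930 TPM in sham and 82576 to 91869 TPM in OVX. The MSC libraries also held all 15 above 1 TPM, with a sum of 55681 to 62554 TPM in the MSC group. In that group the macrophage receptor gene Csf1r stood at 502 to 511 TPM, and the stromal gene Thy1 at 0.273 to 0.375 TPM. Of 15 stromal markers, 12 exceeded 1 TPM in every library of that group, with a sum of 1201 to 1443 TPM, against 2145 to 2315 TPM in sham BMMs. Col1a1, the major collagen of bone-forming cells, was at 173 to 195 TPM in the MSC group and at 556 to 596 TPM in sham BMMs. The members were therefore measured in MSC-labelled libraries that carry macrophage transcripts, and in bulk RNA a change in the number of such cells and a change in RNA per cell cannot be told apart.

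Cebpa and Cebpb moved in opposite directions in the MSC cultures exposed to stimulated RAW cells, and the bases before their start sites are shown for that reason. The sequences are from RefSeq, build GRCm38.p6, plus strand, with the 250 bases that end 1 base before each annotated start. Capitals mark 3 kinds of match, on either strand. The C/EBP core searched was TTGCG. The core of a cAMP response element (CRE) was TGACG. The TATA box was TATAAA.
Cebpa, chr7:35119043-35119292: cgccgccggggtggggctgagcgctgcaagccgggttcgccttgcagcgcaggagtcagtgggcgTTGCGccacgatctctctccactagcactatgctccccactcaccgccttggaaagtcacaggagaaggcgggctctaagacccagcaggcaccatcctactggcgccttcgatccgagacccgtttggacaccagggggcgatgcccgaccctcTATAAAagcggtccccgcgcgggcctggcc
Cebpb, chr2:167688665-167688914: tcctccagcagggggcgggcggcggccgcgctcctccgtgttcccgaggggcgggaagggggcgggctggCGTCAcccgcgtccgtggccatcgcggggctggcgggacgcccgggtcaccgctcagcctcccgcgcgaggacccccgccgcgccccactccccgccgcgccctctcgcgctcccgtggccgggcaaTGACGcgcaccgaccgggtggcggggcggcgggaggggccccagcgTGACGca
The Cebpa window held 1 C/EBP core and 1 TATA box, and no CRE core. The Cebpb window held 3 CRE cores and no match to the other motifs. Of all 32851 promoter windows of this length, 14.5% held the C/EBP core, 17.8% the CRE core and 12.4% the TATA box. The windows also differed in GC content, at 66.4% for Cebpa and 81.6% for Cebpb. A match describes letters and is no evidence of binding. Klf4, Id3 and Runx1 also had promoter sequences, and Spi1, Cebpd, Maf and Bhlhe40 did not.

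In the files' build, GRCm38, the genes on the plus strand were Spi1 (ENSMUSG00000002111) at chr2:91082390-91115756, Cebpa (ENSMUSG00000034957) at chr7:35119293-35121928 and Cebpb (ENSMUSG00000056501) at chr2:167688915-167690418, and Cebpd (ENSMUSG00000071637) at chr16:15887286-15891031, Id3 (ENSMUSG00000007872) at chr4:136143497-136145755 and Bhlhe40 (ENSMUSG00000030103) at chr6:108660629-108666925. Those on the minus strand were Maf (ENSMUSG00000055435) at chr8:115682942-115707794, Klf4 (ENSMUSG00000003032) at chr4:55527143-55532466 and Runx1 (ENSMUSG00000022952) at chr16:92601466-92826149. The tables give 1 count per gene, so transcripts of a gene were not separated. The exons together ranged from 1504 bases for Cebpb to 12025 for Runx1.

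Per length, Spi1 and Cebpb were the most abundant members in sham BMMs, at 487 ± 91.6 TPM and 396 ± 137 TPM (n = 2), followed by Cebpd at 115 ± 16.4 TPM and Id3 at 108 ± 21.6 TPM. Maf stood at 71.5 ± 12.3 TPM, Cebpa at 36.6 ± 13.5 TPM, Klf4 at 14.6 ± 0.410 TPM, Runx1 at 13.0 ± 0.287 TPM and Bhlhe40 at 11.5 ± 1.80 TPM. The ranges of Spi1 and Cebpb overlapped between libraries, as did those of Cebpd and Id3. In the MSC group Spi1 again led, at 144 ± 10.3 TPM (n = 2), ahead of Cebpa at 82.9 ± 16.8 TPM and Cebpb at 72.4 ± 17.2 TPM, whose ranges overlapped. In the MSC+RAW-LPS-TW group Cebpb led, at 203 ± 44.6 TPM, over Spi1 at 171 ± 25.2 TPM, again with overlapping ranges, and Cebpa was the second lowest member at 14.8 ± 2.64 TPM.

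Over the 5 groups, each gene had its own order of TPM levels. TPM holds no correction for the make-up of a library, and the 2 tables come from separate experiments, so this order is a description. Spi1 was highest in sham, with no overlap with the next group, and MSC+RAW-TW and OVX, next in order, overlapped. Cebpa was highest in MSC+RAW-TW and MSC, which overlapped, intermediate in OVX and sham, which overlapped, and lowest in MSC+RAW-LPS-TW, which stood apart. Cebpb and Cebpd were highest in sham and lowest in MSC. For Cebpb the neighbours sham and OVX, and OVX and MSC+RAW-LPS-TW, overlapped. For Cebpd only MSC+RAW-LPS-TW and MSC+RAW-TW overlapped as neighbours. Maf was highest in the 2 BMM groups, which overlapped, and lowest in MSC+RAW-LPS-TW. Klf4 and Id3 were highest in OVX and Bhlhe40 in MSC+RAW-LPS-TW, at 19.3 ± 0.398 TPM, each without overlap with the next group. Runx1 covered the smallest range of the 9, from 13.0 ± 0.287 TPM in sham to 19.9 ± 2.90 TPM in MSC.

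The share of each C/EBP gene in their summed TPM differed among the MSC cultures. In the MSC group Cebpa made up 55.5% and 40.6% of the summed Cebpa, Cebpb and Cebpd TPM in libraries 1 and 2, and in MSC+RAW-TW it made up 42.4% and 44.3%. In MSC+RAW-LPS-TW its share was 6.29% and 6.0%, and that of Cebpb was 83.2% and 84.4%. The BMM libraries also held mostly Cebpb, at 63.4% to 79.7% in sham and 65.3% to 77.6% in OVX. The log2 ratio of Cebpb to Cebpa was -0.20 ± 0.64 in MSC (n = 2), 0.11 in the 1 MSC+RAW-TW sample and 3.77 ± 0.06 in MSC+RAW-LPS-TW (n = 2). It was 3.44 ± 1.06 in sham (n = 2) and 2.55 ± 0.57 in OVX (n = 3), whose libraries overlapped.

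**Figure D1:**
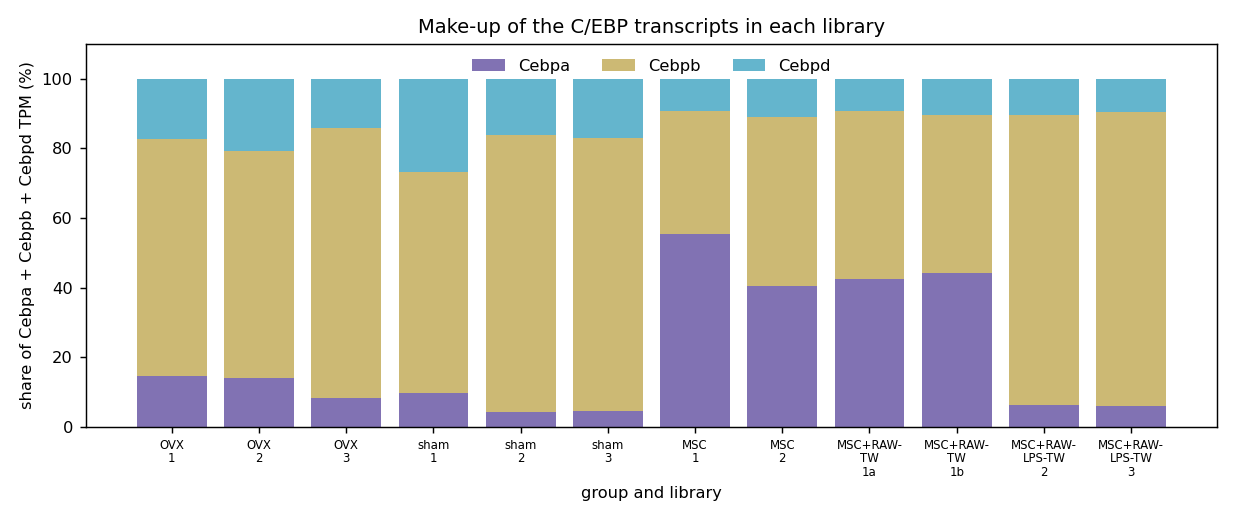
Share of the summed TPM of Cebpa, Cebpb and Cebpd (y axis, %) in each of the 12 libraries (x axis, group and library number), with bars stacked by gene. Cebpa fills 40.6% to 55.5% of the bar in the MSC and MSC+RAW-TW libraries, and 6.0% to 6.29% in the MSC+RAW-LPS-TW libraries.

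The first comparison asked which members differ between BMMs of OVX and sham mice. Spi1 and Cebpd were lower in OVX, and the other 7 members did not pass the test. A gene was called where the fold change was at least 2 and the Benjamini-Hochberg adjusted p of edgeR's quasi-likelihood test was at most 0.05. Called genes were 8.46% of the 16768 tested, 5.39% higher and 3.08% lower, against 0 members called higher and 2 lower. By the adjusted p alone, 13.1% of genes passed, 7.25% higher and 5.83% lower, and the same 2 members.

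Spi1, the gene of PU.1, stood at 211, 281 and 263 CPM in OVX libraries 1 to 3 and at 595, 790 and 778 CPM in sham libraries 1 to 3. Every OVX library was below every sham library. The means were 252 ± 36.0 CPM in OVX (n = 3) and 689 ± 134 CPM in sham (n = 2). OVX was 2.76-fold lower (log2 fold change -1.46, SE 0.21, edgeR adjusted p = 0.00771). Cebpd was at 90.1, 114 and 95.6 CPM in OVX and at 247, 203 and 204 CPM in sham, again without overlap. It was 2.27-fold lower (log2 fold change -1.19, SE 0.19, edgeR adjusted p = 0.00928).

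Cebpb missed the call. It was at 142, 143 and 213 CPM in OVX and at 235, 403 and 379 CPM in sham. OVX library 3 and sham library 1 came close to each other, and no OVX library reached the sham range. The log2 fold change was -0.92 (95% interval -1.55 to -0.30, edgeR adjusted p = 0.0605). With all 6 libraries as separate samples it was -1.03 with an edgeR adjusted p of 0.0168, and without OVX library 3 it was called, at -1.14. It was past both limits without sham library 1 too, but sham then held 1 sample and the spread came from OVX alone. Cebpa, the relative that marks earlier myeloid cells, was at 53.6, 53.6 and 40.5 CPM in OVX and at 63.6, 37.0 and 38.2 CPM in sham. These ranges overlapped, with a log2 fold change of -0.05 and a 95% interval of -0.64 to 0.54.

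Id3 was the member with the largest value in the other direction. It was at 127, 178 and 164 CPM in OVX and at 116, 91.1 and 84.4 CPM in sham, so that the groups did not overlap. The log2 fold change was 0.61 (95% interval 0.10 to 1.12, edgeR adjusted p = 0.107). Maf ranged from 254 to 274 CPM in OVX and from 271 to 350 CPM in sham, with overlap and a log2 fold change of -0.23 (95% interval -0.66 to 0.19). Klf4, Bhlhe40 and Runx1 had log2 fold changes of 0.16, 0.09 and 0.04, and their intervals kept within -0.35 to 0.56. On TPM, Klf4 was at 19.9 to 23.1 in OVX and at 12.4 to 16.2 in sham without overlap, while on CPM the OVX libraries, at 24.9 to 28.2, overlapped the sham libraries, which reached 26.1.

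**Figure D2:**
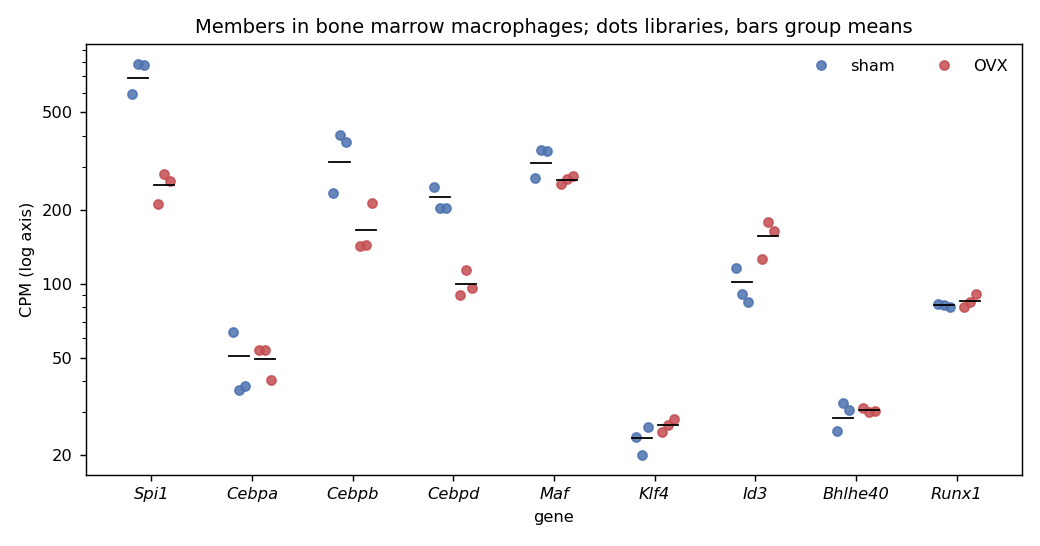
Level of each member in bone marrow macrophages (y axis, CPM on a log axis) by gene (x axis), with a dot for each of 3 sham and 3 OVX libraries and a bar for the group mean, in which sham libraries 2 and 3 count once. Spi1 and Cebpd lie lower in OVX with no overlap, and Runx1 lies at 80.6 to 90.5 CPM in all 6 libraries.

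GC content moved with this comparison. The OVX libraries deviated from the mean library with a Spearman correlation with GC content, across genes, of -0.597 to -0.329, and the sham libraries with 0.207 to 0.508. Exons of Spi1 hold 58.9% GC, those of Cebpb 67.2%, of Cebpa 62.6% and of Cebpd 51.6%, against a median of 49.3% over tested genes. With the trends on GC and length taken out of the counts, Spi1 had a log2 fold change of -1.02 (edgeR adjusted p = 0.0105) and Cebpd of -1.01 (edgeR adjusted p = 0.0136), both still called at the edge of the fold limit. Cebpb had -0.37 (edgeR adjusted p = 0.37), and Id3 had 0.98 (edgeR adjusted p = 0.0292), just under the fold limit. Without OVX library 2, Cebpd kept a log2 fold change of -1.28 but had an edgeR adjusted p of 0.0514. Counts on rRNA genes, nuclear and mitochondrial, also differed, at 2.56% to 2.78% of all counts in OVX and 3.22% to 5.70% in sham, and their part in the members' values was not tested.

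**Figure D3:**
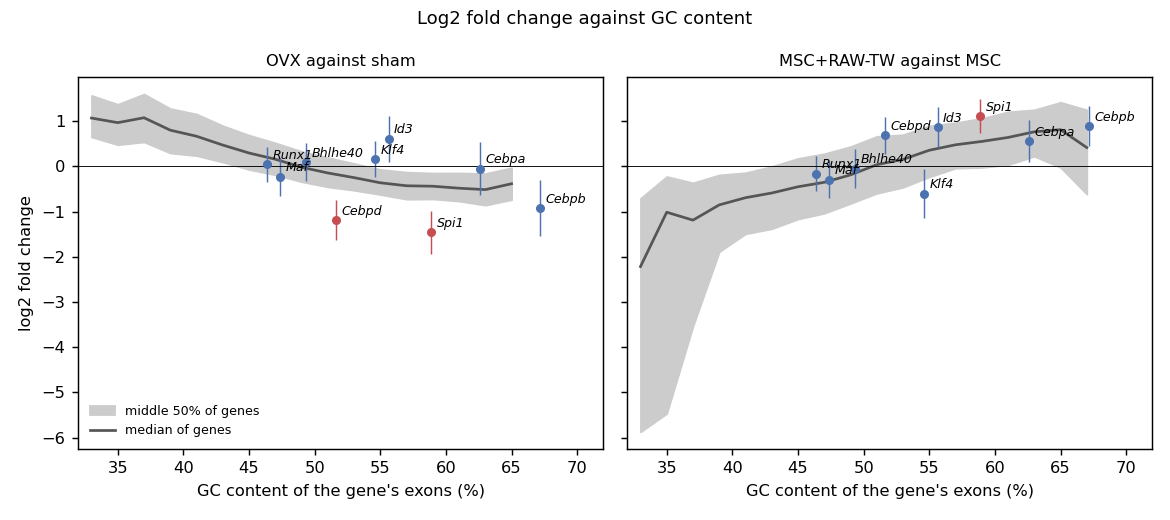
Log2 fold change (y axis) against the GC content of a gene's exons (x axis, %) for OVX against sham (left) and MSC+RAW-TW against MSC (right), with the median and middle 50% of tested genes in bins of 2% GC and the members as points with 95% intervals, red where called. Spi1 lies at -1.46 on the left and at 1.10 on the right, the direction in which the median of genes of its GC content also lies.

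Relatives of the members, and other myeloid regulators, were described from lists. Of the 51 genes of both kinds tested, 1 was called higher and 4 lower in OVX, with a median log2 fold change of 0.20 against -0.01 over all genes. Among the ETS relatives of Spi1, 2 of 9 were called, both lower. Spic, the red pulp macrophage factor, was at 3.53 CPM in OVX and 12.8 CPM in sham, with a log2 fold change of -1.88, and Ets2 was at 51.6 and 112.2 CPM, with -1.13. With the GC and length trends removed Ets2 had -0.91 and was not called, and leaving out OVX library 1, OVX library 2 or sham library 1 also ended its call. The log2 fold change of Ets2 stayed at -1.15 to -0.85 with any 1 library left out. Of 26 relatives in the C/EBP, MAF, KLF, ID and E protein, BHLHE40 and RUNX lists, 0 were called by edgeR and 0 by DESeq2, and 9 had an unadjusted p under 0.05. Of these, Cebpg, at 66.7 CPM in OVX and 38.6 CPM in sham, and the E protein gene Tcf12, at 58.4 and 33.6 CPM, were higher by the adjusted p alone. Mafg, at 60.1 and 97.1 CPM, and Klf13, at 32.3 and 53.2 CPM, were lower by it. With the GC and length trends removed, these 4 genes did not pass, with edgeR adjusted p from 0.198 for Mafg to 0.305 for Cebpg. Bhlhe41, the close relative of Bhlhe40, was at 33.9 CPM in OVX and 19.3 CPM in sham, with a log2 fold change of 0.80 and an edgeR adjusted p of 0.0442, under the fold limit, and an edgeR adjusted p of 0.0679 with the trends removed. Among 16 other myeloid regulators, Egr2 was called higher, at 9.67 and 4.05 CPM, and Batf3 and Nr1h3 lower. Batf3, a dendritic cell factor, was at 3.79 CPM in OVX and 19.2 CPM in sham, and Nr1h3, the liver X receptor alpha gene, at 8.83 and 28.2 CPM. Without OVX library 1 or OVX library 2, Egr2 missed the adjusted p, while its log2 fold change of 1.23 stayed at 1.12 to 1.36 with any 1 library left out.

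Among genes known as targets of these factors, calls were mostly in the lower direction. Of 29 targets tested, 1 was called higher and 7 lower, with a median log2 fold change of -0.68. Among 13 PU.1 targets, 3 were called lower and none higher, led by Ncf4, a subunit of the phagocyte oxidase, with a log2 fold change of -1.15, and Fcgr1, the high-affinity IgG receptor, with -1.12. With the GC and length trends removed, 0 PU.1 targets were called by edgeR, with 9 of 13 at an unadjusted p under 0.05 and 3 called by DESeq2 on the counts as deposited, and Ncf4 had -0.76 and Fcgr1 -0.94, and without OVX library 2 there were also 0, while the fold changes with any 1 library left out stayed at -1.26 to -1.05 for Ncf4 and -1.18 to -1.08 for Fcgr1. Csf1r, the receptor gene that PU.1 is best known to activate, was at 940 ± 38.9 CPM in OVX and 1060 ± 81.4 CPM in sham, with a log2 fold change of -0.18 that was not called. Among 11 C/EBP targets, 3 were called lower and 1 higher. The acute-phase gene Saa3 was at 582 ± 28.3 CPM in OVX and 6592 ± 65.1 CPM in sham, a log2 fold change of -3.51, and Hp, which encodes haptoglobin, had -1.94. Ptgs2, the inducible cyclooxygenase, was the gene called higher, with 1.32, and had 0.56, not called, with the GC and length trends removed. Of 5 MAF targets, Il10 was called lower, with -1.20, and missed the adjusted p without OVX library 2, while its fold change stayed at -1.23 to -1.15 with any 1 library left out, and the complement genes C1qa, C1qb and C1qc were not called.

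The macrophage marker list moved in the same direction as Spi1. Of its 15 genes, 4 were called lower in OVX and 9 passed the adjusted p in that direction, with a median log2 fold change of -0.70. Among the 4 were Adgre1, which encodes F4/80, with -1.19, and Aif1 with -1.31. Without Lyz2, the list summed to 15980 to 17698 TPM in OVX and 19829 to 22011 TPM in sham. Neutrophil markers summed to 4658 to 5230 TPM in OVX and 2369 to 2765 TPM in sham, and none of 11 was called. Most of these sums was S100a8, at 1655 and 896 TPM, and S100a9, at 2941 and 1433 TPM. Of the 11, 7 had a positive log2 fold change, and 1 passed the adjusted p in that direction. Mpo, at 5.76 and 11.2 CPM, Elane, at 6.36 and 9.51 CPM, Camp and Mmp8 were lower in OVX. Of 6 osteoclast markers tested, 3 were called lower, Acp5, Mmp9 and Ocstamp, and the list summed to 405 to 415 TPM in OVX and 574 to 693 TPM in sham. In the other direction, Atp6v0d2 passed the adjusted p under the fold limit, at 25.1 CPM in OVX and 13.9 CPM in sham. B cell markers summed to 21.2 to 22.7 TPM in OVX and 28.6 to 33.8 TPM in sham. Cd79b was called lower, at 7.01 and 19.0 CPM, or 11.9 and 25.3 TPM. Of 6 tested, 2 had a positive log2 fold change and were not called, Ebf1 at 34.3 and 23.6 CPM and Ms4a1 at 0.904 and 0.438 CPM. Of 3 dendritic cell markers tested, Xcr1 was called lower, at 0.555 CPM in OVX and 1.57 CPM in sham. The other 2 were higher in OVX and not called, Itgax at 7.90 and 4.75 CPM and Zbtb46 at 2.94 and 2.15 CPM. The dendritic cell list summed to 4.59 to 5.81 TPM in OVX and 2.92 to 3.41 TPM in sham. The part of these shifts in the values of Spi1 and Cebpd was not tested. Of the 13 PU.1 targets, 5 are also on the macrophage marker list.

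The second comparison asked how the members differ between MSC cultures across from stimulated RAW cells and MSCs alone. Cebpb and Bhlhe40 rose and Cebpa fell in MSC+RAW-LPS-TW, and Cebpd, Id3 and Spi1 were higher by less than the fold limit. Called genes were 10.9% of the 20499 tested, 5.85% higher and 5.09% lower, against 2 members called higher and 1 lower. By the adjusted p alone, 20.9% of genes passed, 11.1% higher and 9.85% lower, against 5 members higher and 1 lower.

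Cebpa was at 99.8 and 67.2 CPM in MSC libraries 1 and 2 and at 17.5 and 21.2 CPM in MSC+RAW-LPS-TW libraries 2 and 3. The lower of the MSC values was above both stimulated values. The fall was 4.33-fold (log2 fold change -2.11, SE 0.20, edgeR adjusted p = 8.53e-07). Cebpa is also among the genes that the study displayed from these libraries, so its direction here is not independent evidence.

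Cebpb was at 36.2 and 45.7 CPM in MSC and at 132 and 170 CPM in MSC+RAW-LPS-TW, with no overlap. It rose 3.69-fold (log2 fold change 1.88, SE 0.18, edgeR adjusted p = 1.01e-06). Bhlhe40, the repressor gene, was at 13.0 and 12.6 CPM in MSC and at 45.9 and 44.5 CPM in MSC+RAW-LPS-TW. Its values within each group lay close together, and it rose 3.51-fold (log2 fold change 1.81, SE 0.17, edgeR adjusted p = 9.62e-07). Removing the GC and length trends left these 3 calls in place, at -2.21 for Cebpa, 1.69 for Cebpb and 1.88 for Bhlhe40. Counts on rRNA genes made up 5.67% to 8.03% of counts in MSC+RAW-LPS-TW, 4.14% to 4.83% in MSC and 1.91% to 1.93% in MSC+RAW-TW, and their part in the members' values in all MSC comparisons was not tested.

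Spi1 was at 147 and 146 CPM in MSC and at 211 and 245 CPM in MSC+RAW-LPS-TW, a log2 fold change of 0.64 (edgeR adjusted p = 0.00603), and the groups did not overlap. Cebpd was at 23.4 and 26.1 CPM in MSC and at 41.4 and 48.3 CPM across from stimulated cells, with 0.86 (edgeR adjusted p = 0.00119). Spidr, a gene on the other strand that shares 562 of the 3746 exon bases of Cebpd, had 433 to 1084 counts in the MSC table and a log2 fold change of 0.89, and the strand setting of the counting is not stated. Id3 was at 33.4 and 41.0 CPM in MSC and at 52.5 and 70.9 CPM in MSC+RAW-LPS-TW, with 0.73 (edgeR adjusted p = 0.00741). Maf was at 130 and 159 CPM and at 105 and 108 CPM, with -0.44 (95% interval -0.77 to -0.12, edgeR adjusted p = 0.0533). Klf4 had -0.07 (95% interval -0.50 to 0.36) and Runx1 0.15 (95% interval -0.17 to 0.47).

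**Figure D4:**
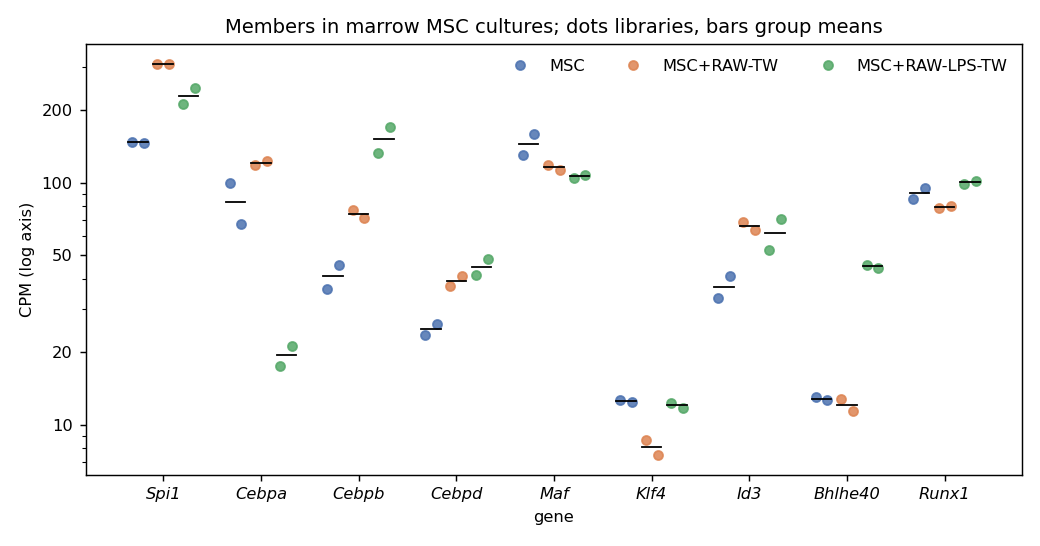
Level of each member in the MSC cultures (y axis, CPM on a log axis) by gene (x axis), with a dot for each of 2 libraries in the MSC, MSC+RAW-TW and MSC+RAW-LPS-TW groups and a bar for the group mean. In MSC+RAW-LPS-TW Cebpa lies at 17.5 and 21.2 CPM, the lowest of the 3 groups, and Cebpb and Bhlhe40 are the highest.

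Relatives of the 9 members and other myeloid regulators were called in both directions. Of 51 genes tested, 6 were called higher and 8 lower, with a median log2 fold change of 0.07 against -0.01 over all genes. Among the MAF relatives, Maff, a small MAF protein without an activation domain, rose from 6.65 to 24.1 CPM. Bhlhe41 fell from 45.9 to 13.2 CPM, a log2 fold change of -1.80, while its relative Bhlhe40 rose. Among 8 KLF relatives, Klf6 was called higher at 1.05 and Klf2 lower at -1.46. Of 6 ID and E proteins, Id1 was called lower at -1.34. Of 9 ETS relatives, Ets1 and Spic were called higher, at 1.23 and 1.11, and Spib had 0 counts in both MSC libraries and 16 and 12 in MSC+RAW-LPS-TW. Of 3 C/EBP relatives, Cebpe was called lower, with 29 and 12 counts in MSC and 0 in both MSC+RAW-LPS-TW libraries, a call that was lost without MSC library 2 or without either MSC+RAW-LPS-TW library. Of 4 RUNX relatives and partners, Runx3 was called higher at 1.13, and not without MSC+RAW-LPS-TW library 3, at 0.93. Spic, at 0.80, and Klf6, at 0.91, were likewise not called without MSC+RAW-LPS-TW library 2. Among 16 other myeloid regulators, Nr1h3 was called higher and 3 were called lower, led by Hhex at -1.95 and Pparg at -1.54.

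Calls among target genes differed in direction from list to list. Among 8 C/EBP targets tested of 11, 6 were called higher and 1, Cebpe, lower, with a median log2 fold change of 4.31. Il6 rose from 0.456 CPM in MSC to 204 CPM, and Lcn2, the siderophore-binding lipocalin, from 53.9 to 3019 CPM. Among 5 MAF targets, Il10 rose from 7.17 to 82.0 CPM, and the other 4 were called lower, led by Cd5l, a lipid-binding protein of tissue macrophages, from 171 to 5.89 CPM, and C1qc from 902 to 143 CPM. Among 13 PU.1 targets, 1 was called higher and 5 lower. Cybb, the oxidase subunit, rose from 313 to 1813 CPM, while Cd68 fell from 565 to 80.0 CPM and Lyz2 from 21642 to 9579 CPM.

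Macrophage markers shifted in this comparison too. Of 15, 1 was called higher, Adgre1, and 6 lower, and the list without Lyz2 summed to 7857 to 9279 TPM in MSC+RAW-LPS-TW and 14638 to 16662 TPM in MSC. Spi1 was higher in the same libraries. Of the 15 stromal markers, 4 were called higher and none lower, and their sum was 1170 to 1359 TPM in MSC+RAW-LPS-TW and 1201 to 1443 TPM in MSC. Neutrophil markers summed to 1059 to 1673 TPM against 48.5 to 73.6 TPM, with 7 of the 11 at or under 3 counts in every MSC+RAW-LPS-TW library. Osteoclast markers summed to 516 to 595 TPM against 122 to 136 TPM, with 2 of 6 called higher and 1 lower. The part of these cell type shifts in the members' values was not tested.

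The third comparison set MSCs across from untreated RAW cells against MSCs alone, and shares the MSC libraries with the comparison above. Spi1 was the 1 member called, higher in MSC+RAW-TW. Called genes were 16.4% of those tested, 6.8% higher and 9.59% lower. Spi1 was at 310 and 308 CPM in MSC+RAW-TW libraries 1a and 1b, against 147 and 146 CPM in MSC. Its level was 2.15-fold higher (log2 fold change 1.10, SE 0.18, edgeR adjusted p = 0.000551). With the GC and length trends removed it was 0.47 with an edgeR adjusted p of 0.0518, so that 0 members were called by edgeR, with 4 at an unadjusted p under 0.05 and 1 called by DESeq2 on the counts as deposited. The MSC+RAW-TW libraries deviated with a Spearman correlation with GC content of 0.374 to 0.378, the MSC libraries with -0.302 to -0.234.

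By the adjusted p alone, 28.6% of genes passed, 13.8% higher and 14.8% lower, against 4 members higher and 0 lower. Besides Spi1 these were 3 members under the fold limit. Cebpb was at 76.9 and 71.6 CPM in MSC+RAW-TW, with a log2 fold change of 0.89, which was 0.08 with the trends removed. Id3 was at 68.7 and 63.7 CPM, with 0.86, and Cebpd at 37.3 and 41.0 CPM, with 0.68. With the trends removed Id3 had 0.44 (edgeR adjusted p = 0.125) and Cebpd 0.52 (edgeR adjusted p = 0.0575), and neither passed. Without MSC library 2, Cebpb and Id3 had 1.07 and 1.02, past both limits, but each group then held 1 sample and the spread came from MSC+RAW-LPS-TW alone. Cebpa was at 119 and 123 CPM, above both MSC libraries, with 0.56 (95% interval 0.08 to 1.03, edgeR adjusted p = 0.0724). Klf4 was at 8.63 and 7.48 CPM, below both MSC libraries at 12.7 and 12.5 CPM, with -0.61 (edgeR adjusted p = 0.083), and with -0.99 once the trends were removed (edgeR adjusted p = 0.0131), just under the fold limit. Bhlhe40 was at 12.8 and 11.4 CPM, within reach of the MSC level, with -0.06 (95% interval -0.49 to 0.38).

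Of the 51 relatives and other myeloid regulators, 1 was called higher and 1 lower. These were Egr1, an immediate early gene and no relative of a member, at 68.9 and 33.0 CPM, and Tcf12, an E protein, at 12.9 and 36.5 CPM, and neither was called with the trends removed, nor Egr1 without MSC library 1. In the ETS, C/EBP, MAF, KLF, BHLHE40 and RUNX lists, 0 of 29 relatives were called by edgeR and 1 by DESeq2, and 17 had an unadjusted p under 0.05. Among the 26 targets tested, 5 were called higher and 1 lower. C1qb was at 3520 CPM in MSC+RAW-TW and 1222 CPM in MSC, with a log2 fold change of 1.55, and C1qa had 1.23, or 0.71 with the trends removed. Among C/EBP targets, Il6 was at 1.76 CPM in MSC+RAW-TW and 0.456 CPM in MSC, and Hp at 204 and 83.5 CPM, with a log2 fold change of 1.31, or 0.87 with the trends removed, where it was not called. Msr1, a scavenger receptor and the PU.1 target called lower, had -1.10, and was not called without MSC library 2, at -0.998, or with the trends removed, at -0.14. The macrophage markers without Lyz2 summed to 22718 to 22851 TPM in MSC+RAW-TW, above the 14638 to 16662 TPM of MSC, and 4 of 15 were called higher. Of 15 stromal markers, 3 were called higher and 3 lower. The part of both lists in the value of Spi1 was not tested.

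The fourth comparison set the MSC+RAW-LPS-TW libraries beside those of MSC+RAW-TW, which differ in the stimulation of the RAW cells. It shares libraries with both comparisons above. Cebpa fell and Bhlhe40 rose, and these were the 2 members called, where 27.4% of genes were called, 15.4% higher and 12.0% lower. By the adjusted p alone, 40.2% of genes passed, 21.3% higher and 18.9% lower, against 2 members in each direction. Cebpa went from 119 and 123 CPM to 17.5 and 21.2 CPM, a fall of 6.36-fold (log2 fold change -2.67, SE 0.22, edgeR adjusted p = 3.24e-07). Bhlhe40 rose 3.65-fold (log2 fold change 1.87, SE 0.22, edgeR adjusted p = 9.69e-06). Cebpb stood just under the limit, at 0.99 (edgeR adjusted p = 0.00197), and at 1.61 with the trends removed, where it was called. It was also called with all libraries as separate samples, without MSC+RAW-TW library 1a and without MSC+RAW-LPS-TW library 2, where each group held 1 sample and the spread came from MSC alone.

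Spi1 was lower in MSC+RAW-LPS-TW by a log2 fold change of -0.47 (edgeR adjusted p = 0.0499), and this value was 0.13 with the trends removed. Cebpd at 0.17, Maf at -0.15, Id3 at -0.14 and Runx1 at 0.31 did not pass the test. Klf4 had 0.54 (95% interval 0.00 to 1.07, edgeR adjusted p = 0.0999) and 0.97 with the trends removed (edgeR adjusted p = 0.00775), under the fold limit.

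**Figure D5:**
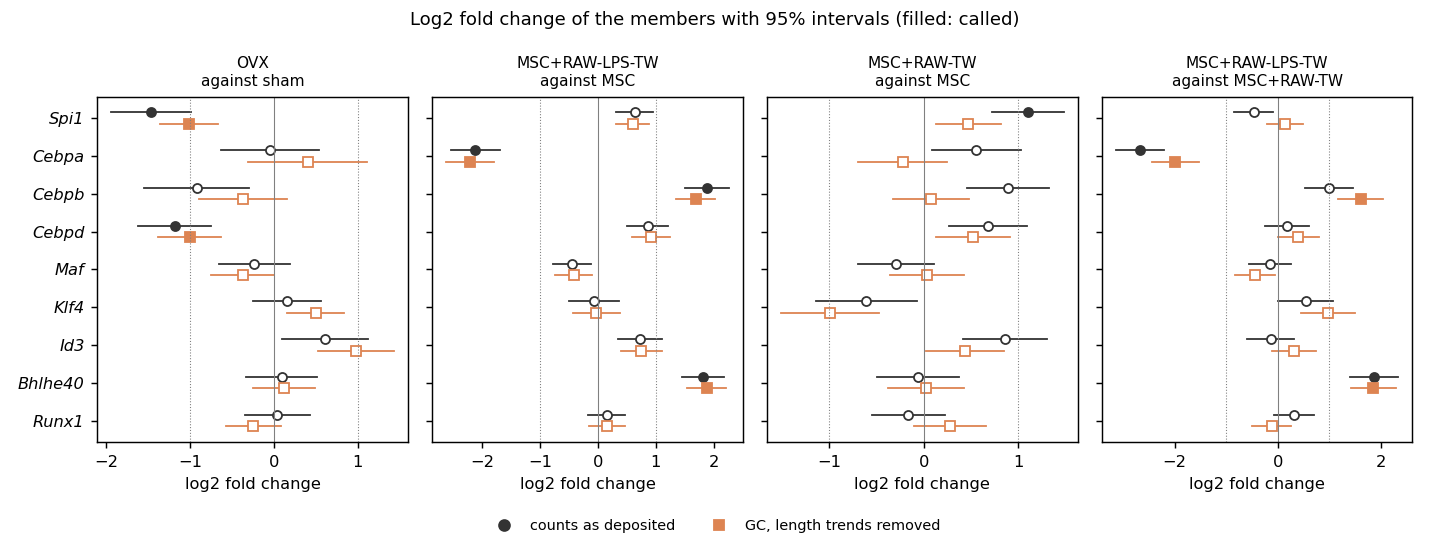
Log2 fold change of the 9 members (x axis) in each of the 4 comparisons with 95% intervals, from the counts as deposited (circles) and with GC and length trends taken out (squares), filled where called. Cebpa and Bhlhe40 are filled in both fits for MSC+RAW-LPS-TW against either other group, and Spi1 against MSC in MSC+RAW-TW is filled only in the first.

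Of the 51 relatives and other myeloid regulators, 7 were called higher and 7 lower, and 3 of the lower, among them Hhex and Pparg, were other myeloid regulators. Maff had a log2 fold change of 1.38, Ets1 of 2.21, Klf2 of -1.73, Id1 of -2.12, Tcf12 of 1.69, Runx3 of 1.499, Hhex of -1.88 and Pparg of -1.73. Klf7 was called higher at 1.498, and not with the trends removed, at 0.996. A pair of genes was called on few reads, Klf5 at 18 and 33 counts in MSC+RAW-TW and 71 and 69 in MSC+RAW-LPS-TW, and Cbfa2t3, a RUNX1 partner, at 53 and 26 against 6 and 2 counts. Neither was called by DESeq2 or with the trends removed. Of 8 C/EBP targets tested, 7 were called higher, which included Il6 at 6.83, and none lower. Of 5 MAF targets, Il10 was called higher at 2.83 and 4 lower, led by Cd5l at -5.77 and C1qb at -3.72. Of 13 PU.1 targets, 3 were called higher, led by Cybb at 3.14 and Itgam at 1.21, and 4 lower, led by Cd68 at -3.20 and Lyz2 at -1.50. Of the 15 macrophage markers, 8 were called lower and 3 higher, which included Adgre1 at 2.11. Of 15 stromal markers, 7 were called higher and 2 lower, and of 4 neutrophil markers tested, 3 were called higher, with a list sum of 1059 to 1673 TPM against 99.1 to 107 TPM in MSC+RAW-TW. Most of that sum was S100a8, at 958.5 to 1541.5 TPM in MSC+RAW-LPS-TW and 88.5 to 97.3 TPM in MSC+RAW-TW. In every MSC+RAW-LPS-TW library, 7 of the 11 neutrophil markers were at or under 3 counts. The part of these markers in the values of the members was not tested.

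Across the 10 samples of both tables, the genes whose log2 CPM followed each member most closely were found by Pearson's r among 9723 genes, as a description. The samples of a table share an experiment, so a difference between the tables alone gives a high r. Spi1 was closest to Lrp10 (r = 0.984) and Rhog (r = 0.979), Cebpa to Smyd3 (r = 0.97) and Igfbp4 (r = 0.965), and Cebpb to Acp5 (r = 0.977) and Galk1 (r = 0.974). Acp5 encodes the acid phosphatase of osteoclasts. Cebpd was closest to the neighbouring membrane genes Tmem176a (r = 0.989) and Tmem176b (r = 0.987). Maf followed Mxd4 (r = 0.988) and Mir703 (r = 0.987), Klf4 followed Eif4e3 (r = 0.989) and the collagen gene Col1a2 (r = 0.988), and Id3 followed Serpinh1 (r = 0.972), a collagen chaperone, and Kctd15 (r = 0.968). Bhlhe40 followed Rasl12 (r = 0.994) and Camp (r = 0.982), and Runx1 followed Rspo3 (r = 0.909).

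Of the members, 6 share exon bases with a gene on the other strand. Tmem189 shares 20.7% of the Cebpb exon bases and had 2257 to 5529 counts in the BMM libraries and 2900 to 5088 in the MSC libraries. Its log2 fold change was -0.61 in OVX against sham, where it was not called, and 0.03 in MSC+RAW-LPS-TW against MSC. The partners of Bhlhe40, Cebpa and Maf had at most 9 counts in any library, and that of Runx1 at most 60. The labels name a directional library kit, and the strand setting of the counting is not given in the sources used here, so reads in these shared stretches cannot be assigned.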

How the data were processed

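Poly(A) RNA was sequenced from 12 libraries. Per the labels and the methods, the authors trimmed reads with Trim Galore 0.6.7, mapped them to GRCm38 with HISAT2 2.1.0 and deposited raw counts per Ensembl gene from featureCounts 2.0.1, not normalized or filtered. GENCODE M21 named 55227 of 55487 genes. Count models were fitted in edgeR 4.0.16 (R 4.3.3) over all genes, with TMM, filterByExpr and the quasi-likelihood test. Pairs of libraries whose chi-square over sampling noise stayed below 5 at high counts were summed to 1 sample. GC content and length trends were removed by lowess (span 0.3). DESeq2 1.42.0 was an alternative. The scripts were tested on simulated data. Even values made up 60.03% to 71.42% of counts from 1 to 20, for a reason not given in the sources used here. TPM were computed from the counts and the exon lengths in the files. Likeness used log2 of CPM plus 1 and genes of at least 5 CPM on average in each table.

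Members, relatives, targets and marker lists were chosen with earlier results of these data known. Genes named from each list are up to 2 with the largest rise and 2 with the largest fall among called genes. Csf1r, Cebpg, Mafg, Klf13, Spib and the cell type markers named, and Tcf12 in OVX against sham, were chosen after their values were seen. Results for some genes that this rule names are not reported here.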

Additional observations from a re-analysis of the deposited data

How the results depend on the processing

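Counts below are genes called unless members are named. In OVX against sham, 1419 genes were called, and 590 with the GC and length trends removed, where the split moved from 903 higher and 516 lower to 220 higher and 370 lower. By the adjusted p alone there were 2193. Leaving out 1 library gave 309, without OVX library 2, to 2390, without sham library 1, and 678 without OVX library 1. Members called ranged from 1, without OVX library 2, to 3, without OVX library 3 or sham library 1. By the adjusted p alone, MSC+RAW-LPS-TW against MSC gave 4286 genes and 6 members, MSC+RAW-TW against MSC gave 5862 genes and 4 members, and the contrast of both transwell groups gave 4 members. For MSC+RAW-TW against MSC, removing the trends gave 2165 genes and 0 members, and leaving out 1 library gave 1 to 3 members, the highest without MSC library 2. Leaving out sham library 1 left sham with 1 sample, and leaving out MSC library 2 left both groups of this comparison with 1, so that the spread came from the other groups. Removing the trends moved the median of all genes from -0.134 to -0.001 there, and from 0.137 to 0.015 between the transwell groups.

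Directions turned for some members that were not called. In OVX against sham, Cebpa was 0.087 with all libraries as separate samples, 0.405 with the trends removed and -0.114 to 0.379 with 1 library left out. Bhlhe40 was -0.059 to 0.126 with 1 library left out. Runx1 was -0.244 with the trends removed and -0.003 to 0.08 with 1 library left out. With the trends removed, MSC+RAW-TW against MSC gave Cebpa -0.222, from 0.556, Maf 0.032, Bhlhe40 0.029 and Runx1 0.28, and the contrast of both transwell groups gave Spi1 0.131, from -0.468, Id3 0.315 and Runx1 -0.121. Id3 was -0.358 to 0.074 there with 1 library left out. The causes were not tested.

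Whether replicate numbers in the BMM labels pair the libraries could not be decided. Same-numbered deviations correlated at 0.409, -0.026 and 0.353, and those with unlike numbers at -0.482 to 0.304. Sham libraries 2 and 3 were nearly the same, so the check cannot tell a pair with the one from a pair with the other. With the number as a replicate block, Cebpa was 0.12, and Cebpb was called, at -1.017. With the block and the trends removed, an alternative chosen after seeing the data, Cebpa was 0.64, Runx1 was -0.23, Id3 was called at 1.081 and Cebpd, at -0.95, was not. No paired analysis was possible for the MSC table because its columns share fewer than 2 replicate numbers between groups. With a suffix in the column names as a factor, also chosen after seeing the data, Cebpb was called between the transwell groups, at 1.01, and no other member's call changed.

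Over all members and settings, 435 values kept direction and side of the limits, 12 were called only under the alternative, 3 lost the call and 18 turned direction. The calls of Cebpa and Bhlhe40 in MSC+RAW-LPS-TW held under every alternative run.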
